A study of Mus musculus with 6 samples.

Results

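E proteins are basic helix-loop-helix (bHLH) transcription factors that bind E-box DNA, the motif CANNTG, as dimers with each other or with tissue-restricted bHLH partners such as TAL1. ID proteins carry the helix-loop-helix but no basic DNA-binding region, so a dimer of an ID and an E protein does not bind DNA. In blood formation, E proteins are known for driving lymphoid fate and restraining stem cell cycling, and IDs counter them. The 7 genes of this family described here are the E protein genes Tcf3 (E2A), Tcf4 (E2-2) and Tcf12 (HEB) and the inhibitor genes Id1, Id2, Id3 and Id4. They were chosen by gene symbol among 50763 symbols, and all 7 were found. Tcf4 and Tcf3 are also old names of the HMG-box genes Tcf7l2 and Tcf7l1, which have symbols of their own in the table and are not counted here.

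RNA was sequenced in bulk from mouse bone marrow CD34- KSL cells, a lineage-negative population with c-Kit and Sca-1 on its surface and without CD34, in which long-term haematopoietic stem cells are enriched. All mice carried Tal1-tTA, a doxycycline-repressed activator placed under control of Tal1, and its target transgene TRE-EGFR-tr. In the EGFR-DN group (3 libraries, no doxycycline) the transgene made an EGF receptor without its cytoplasmic tyrosine kinase domain, beside wild-type EGFR. In the EGFR-WT group (3 libraries) doxycycline at 0.2 g/L in the drinking water left wild-type EGFR as the only form. Truncated receptor and absence of doxycycline therefore cannot be told apart. The labels give neither the age of the mice nor whether replicates came from different mice. The p-values rest on the spread among these libraries, which may be technical in part.

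Total counts ranged from 24073133 to 36032428 per library. EGFR-DN replicate 3 stood apart. In it 25.4% of counts fell on 8 rRNA-like genes, against 4.71% to 6.15% elsewhere, and its highest correlation of log2 values with another library, across genes, was 0.928, against at least 0.975 for each of the others. Of 19313 genes tested, 38.1% were higher in it than in every other library and 38.3% were lower than in every other library, so values without it are also given for the members, the lists and each named fold change that it turned or moved by over 1.5 times. Egfr, the check of the groups, was at 117, 135 and 50.3 CPM (counts relative to library total, TMM-scaled) in EGFR-DN replicates 1 to 3, against 0.191, 0.160 and 0.237 CPM in EGFR-WT replicates 1 to 3. The EGFR-WT values are 6 counts in each library, so Egfr transcript was barely detected there. The sort markers Kit and Ly6a were present in all 6 libraries, Kit at 736 to 1962 CPM in EGFR-DN and 771 to 806 CPM in EGFR-WT. Cd34 transcript was present too, at 378 to 569 CPM in EGFR-DN and 318 to 410 CPM in EGFR-WT, although the sort selected cells without the surface protein.

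Upstream sequences are shown for 3 genes that carry the results, the E protein gene with the highest level per length (Tcf3), the E protein gene that departed most in EGFR-DN replicate 3 (Tcf12) and the most abundant inhibitor gene (Id2). Each is the 250 bases before an annotated start in RefSeq (build GRCm38.p6), matched by symbol, whereas the counts were made on mm39. Capitals mark CANNTG, which reads the same on both strands. Tcf3 lies on the minus strand at chr10:80433636-80433885, Tcf12 (the outermost of its 3 listed starts) on the minus strand at chr9:72111820-72112069, and Id2 on the minus strand at chr12:25096093-25096342.
Tcf3: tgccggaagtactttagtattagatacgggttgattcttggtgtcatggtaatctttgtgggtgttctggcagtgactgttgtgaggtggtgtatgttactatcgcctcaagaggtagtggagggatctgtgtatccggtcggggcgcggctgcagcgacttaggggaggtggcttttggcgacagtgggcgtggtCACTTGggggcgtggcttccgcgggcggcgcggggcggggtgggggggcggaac
Tcf12: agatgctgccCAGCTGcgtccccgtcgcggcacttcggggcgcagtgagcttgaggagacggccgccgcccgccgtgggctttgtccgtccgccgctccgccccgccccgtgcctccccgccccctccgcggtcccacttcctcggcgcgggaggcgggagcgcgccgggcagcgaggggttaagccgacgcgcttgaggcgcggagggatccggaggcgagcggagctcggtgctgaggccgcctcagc
Id2: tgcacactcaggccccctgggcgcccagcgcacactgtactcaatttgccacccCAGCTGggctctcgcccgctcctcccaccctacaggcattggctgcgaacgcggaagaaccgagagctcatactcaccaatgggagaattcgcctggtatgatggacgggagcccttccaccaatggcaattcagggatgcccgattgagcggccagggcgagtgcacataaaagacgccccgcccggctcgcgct

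Each of these windows held 1 CANNTG motif. In Tcf12 and Id2 it was CAGCTG, starting 240 and 196 bases before the start. In Tcf3 it was CACTTG, 54 bases before the start. CANNTG in any form is common, present in 66.2% of 32851 windows of the same length, and CAGCTG was present in 13.00% of them. The upstream windows of Id3 and Id4 held no CANNTG, which says only that these letters are not in those 250 bases. GGCGCC, the GC-rich motif bound by BMP-activated SMADs and the same on both strands, was present in the Id2 and Id4 windows and in 9.59% of all windows. These matches describe the sequence and are not evidence of binding.

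In every library each E protein gene was above each Id gene, in CPM and per length. Tcf3 and Tcf4 averaged 146 and 147 CPM over the 6 libraries, and Tcf12 averaged 102 CPM. Id2 averaged 15.5 CPM and Id1 1.21 CPM. Id3 and Id4 averaged 0.466 and 0.235 CPM. For Id4 the counts were 0, 12 and 4 in EGFR-DN replicates 1 to 3 and 9, 10 and 8 in EGFR-WT replicates 1 to 3, and it was the 1 member dropped by the count filter. The other 6 members were tested.

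CPM favours long transcripts, so levels were compared between genes per kb of merged exons. On that scale Tcf3 was the highest member, at 51.3 ± 14.9 CPM per kb in EGFR-DN and 39.8 ± 2.56 CPM per kb in EGFR-WT (mean ± SD, n = 3 each). Tcf12 was at 18.5 ± 12.3 CPM per kb in EGFR-DN and 11.5 ± 1.15 in EGFR-WT, and Tcf4 at 11.2 ± 2.06 in EGFR-DN and 10.9 ± 0.745 in EGFR-WT, so these neighbours did not differ beyond their spread. Their order depended on the length used, since with the longest coding transcript Tcf4 averaged 17.2 and Tcf12 16.2 CPM per kb over all libraries. Id2 followed at 5.75 ± 1.92 CPM per kb in EGFR-DN and 6.96 ± 0.538 in EGFR-WT, then Id1 at 1.12 ± 0.317 in EGFR-DN and 0.958 ± 0.321 in EGFR-WT. Id3 was at 0.296 ± 0.216 CPM per kb in EGFR-DN and 0.434 ± 0.185 in EGFR-WT, and Id4 was lower in mean in both groups, with an overlap of its range with that of Id3 in EGFR-DN. Per length, the E protein transcripts thus had Tcf3 as the main form, with 62.3% to 65.1% of their sum in EGFR-DN libraries and 60.3% to 67.1% in EGFR-WT libraries. Among the inhibitors Id2 made up 73.6% to 84.2% of the sum in EGFR-DN libraries and 81.0% to 86.0% in EGFR-WT libraries.

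**Figure D1:**
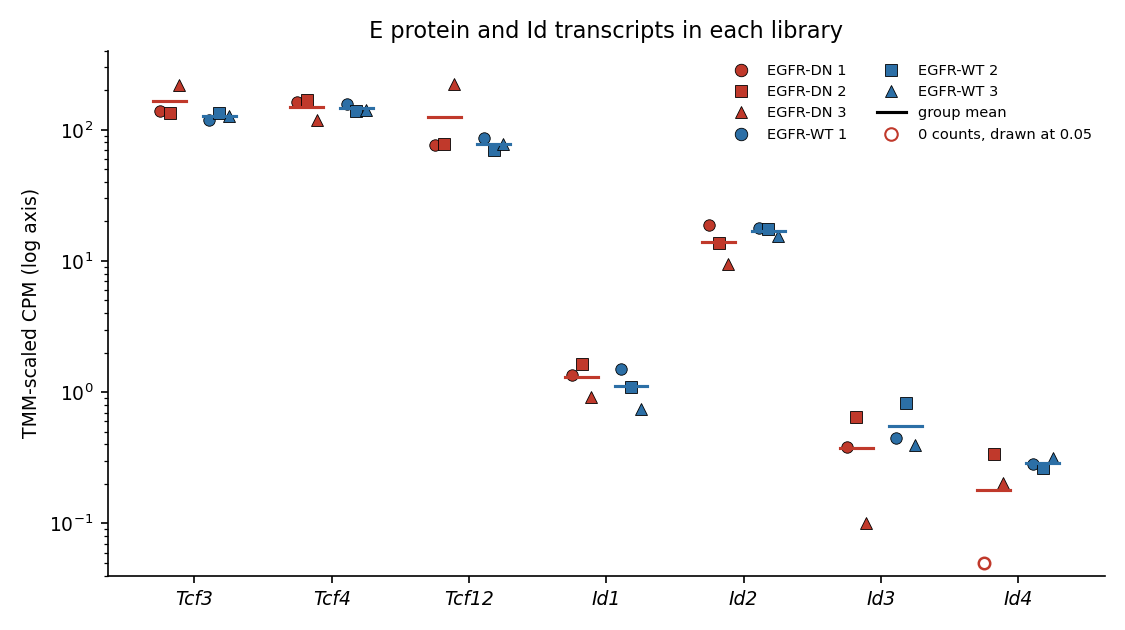
TMM-scaled CPM (log axis) of the 7 genes in each library, EGFR-DN in red and EGFR-WT in blue; symbols mark the replicate, horizontal lines the group mean, and the open circle a count of 0. Id2 is at 9.48 to 18.8 CPM, below every E protein value, and EGFR-DN 3 (red triangle) lies apart for Tcf12, at 222 CPM.

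The comparison of EGFR-DN with EGFR-WT asks whether these genes differ when the truncated receptor is made. None of the 6 tested members passed the threshold of 0.05 in edgeR's quasi-likelihood test after Benjamini-Hochberg adjustment over all genes, where 0.00518% of genes passed (1 gene, Egfr). At an unadjusted p under 0.05 the count of members was also 0 of 6, with 6.69% of all genes below that level, and DESeq2's Wald test called 0 members against 0.699% of all genes. Groups did not overlap for 0 members, against 17.9% of all tested genes. The smallest adjusted p of a member by edgeR was 0.690. Such a p does not show that levels were alike, so the 95% interval of each difference is given.

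Tcf3, whose products E12 and E47 are required for B cell development, was at 140.0, 134 and 219 CPM in EGFR-DN replicates 1 to 3, against 119, 135 and 128 CPM in EGFR-WT replicates 1 to 3. The groups overlapped, and EGFR-DN replicate 3 was the highest library, 1.57-fold above the next, a ratio reached there by 17.8% of tested genes. The log2 fold change was 0.37 (SE 0.22, 95% interval −0.16 to 0.90, edgeR adjusted p = 0.690). Without EGFR-DN replicate 3 it was 0.10, with an interval from −0.07 to 0.27.

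Tcf12, whose product HEB pairs with E2A in early T cell development, was at 76.4 and 78.5 CPM in EGFR-DN replicates 1 and 2 and at 222 CPM in EGFR-DN replicate 3, against 86.3, 70.6 and 78.0 CPM in EGFR-WT replicates 1 to 3. EGFR-DN replicates 1 and 2 lay inside the EGFR-WT range, and replicate 3 was 2.57-fold above the highest other library. A ratio at least that large in that library was found in 5% of tested genes. The log2 fold change was 0.68 (SE 0.42, 95% interval −0.31 to 1.67, edgeR adjusted p = 0.690), and it was −0.02 without replicate 3, with an interval from −0.23 to 0.19. The value over all 6 libraries therefore rested on 1 library, the one with 25.4% rRNA-like counts. In a fit over all 6 libraries with the rRNA-like genes removed it was 0.67 (edgeR adjusted p = 0.696). That fit dropped 8 genes before scaling and left the other counts of replicate 3 as they were. The part of the RNA composition of replicate 3 in the value was not tested.

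Tcf4, whose product E2-2 is required for plasmacytoid dendritic cells, was at 163, 168 and 118 CPM in EGFR-DN replicates 1 to 3, against 157, 138 and 142 CPM in EGFR-WT replicates 1 to 3. EGFR-DN replicates 1 and 2 lay above every EGFR-WT library, as for 16.3% of tested genes, and replicate 3 lay below all of them. A shortfall at least as large in replicate 3 was found in 30.3% of tested genes. The log2 fold change was 0.04 (SE 0.19, 95% interval −0.40 to 0.48, edgeR adjusted p = 0.935). Without replicate 3 it was 0.18 (SE 0.07, 95% interval 0.01 to 0.35), and it did not pass the threshold (edgeR adjusted p = 0.348). Tcf4 was then the 1 member of 7 tested with an unadjusted p under 0.05 (0.0426), a level that 13.6% of all genes reached in that fit, where 0.286% passed after adjustment.

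The 3 E protein genes thus did not depart together in EGFR-DN replicate 3, where Tcf3 and Tcf12 were the highest and Tcf4 the lowest of the 6 libraries. In that library Tcf12 made up 29.7% of the E protein sum per kb, against 16.8% and 17.5% in EGFR-DN replicates 1 and 2 and 16.5% to 20.6% in EGFR-WT. Tcf4 made up 8.01% there, 18.1% and 19.0% in EGFR-DN replicates 1 and 2 and 16.4% to 19.1% in EGFR-WT.

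Id2, which is known to oppose E proteins in innate lymphoid and natural killer cells, was at 18.8, 13.7 and 9.48 CPM in EGFR-DN replicates 1 to 3, against 17.8, 17.7 and 15.5 CPM in EGFR-WT replicates 1 to 3. EGFR-DN replicate 1 was the highest library, and replicates 2 and 3 lay below the EGFR-WT range. A shortfall in replicate 3 at least as large was found in 19.8% of tested genes. The log2 fold change was −0.27 (SE 0.26, 95% interval −0.88 to 0.33, edgeR adjusted p = 0.724). It was −0.07 without replicate 3, with an interval from −0.43 to 0.30.

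Id1, a BMP-responsive gene that in mice is known to affect stem cell self-renewal, was at 1.34, 1.65 and 0.913 CPM in EGFR-DN replicates 1 to 3, against 1.49, 1.09 and 0.749 CPM in EGFR-WT replicates 1 to 3, which is 18 to 58 counts per library. The groups overlapped (log2 fold change 0.23, SE 0.40, 95% interval −0.72 to 1.18, edgeR adjusted p = 0.815), and without EGFR-DN replicate 3 the value was 0.41, with an interval from −0.45 to 1.28. Id3, which is induced by EGR factors downstream of ERK in thymocytes, had 13, 23 and 2 counts in EGFR-DN replicates 1 to 3, against 14, 31 and 10 counts in EGFR-WT replicates 1 to 3. Its log2 fold change of −0.51 had a 95% interval from −2.05 to 1.03 (edgeR adjusted p = 0.763), and without replicate 3 the value was −0.13, with an interval from −1.35 to 1.10. A shortfall in replicate 3 at least as large as that of Id3 was found in 1.98% of tested genes. At these counts even a doubling or a halving of Id3 lies inside the interval. Id4, known mainly from neural tissue, stayed at 12 counts or fewer, and its 0 counts in EGFR-DN replicate 1 allow up to 0.0875 CPM (3 counts, counting error only).

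**Figure D2:**
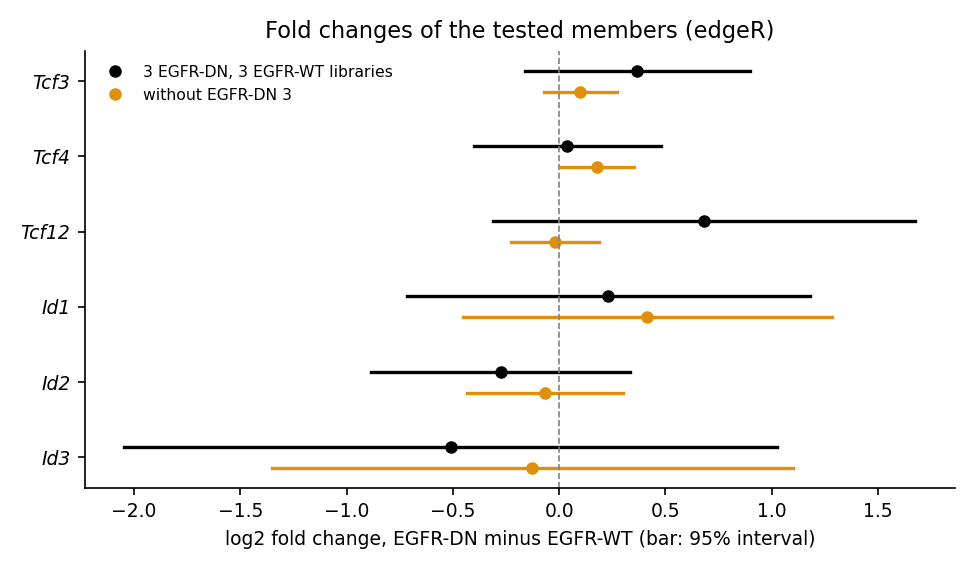
Log2 fold change of the 6 tested genes, EGFR-DN minus EGFR-WT, from edgeR with 95% intervals, over all 6 libraries (black) and without EGFR-DN replicate 3 (orange). Every black interval crosses 0, and the orange value of Tcf12 is −0.02 in place of 0.68.

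The balance of inhibitor to E protein transcripts was taken as the sum of the Id genes over the sum of the E protein genes, both in CPM per kb. There were 13.7, 11.6 and 4.37 Id for each 100 E protein in EGFR-DN replicates 1 to 3, against 14.6, 14.2 and 11.9 in EGFR-WT replicates 1 to 3. EGFR-DN replicate 1 lay inside the EGFR-WT range, replicate 2 just below it, and replicate 3 far below every other library. In replicate 3 the E protein sum was the highest, at 110.0 CPM per kb against 61.5 to 67.1 in the other 5 libraries, and the Id sum the lowest, at 4.81 against 7.38 to 9.18. The log2 ratio averaged −3.50 ± 0.89 over EGFR-DN libraries and −2.89 ± 0.16 over EGFR-WT libraries (SD, n = 3 each), and −2.99 ± 0.17 in EGFR-DN without replicate 3 (n = 2). This ratio describes RNA and says nothing of protein amounts, and as a score over the members it was not tested.

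**Figure D3:**
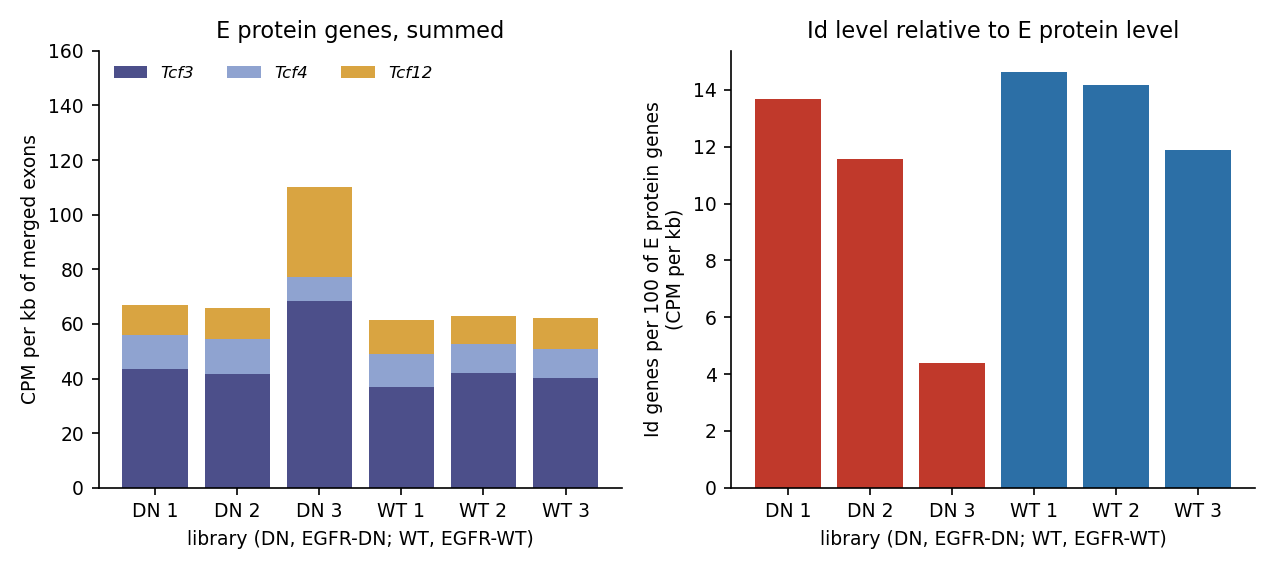
Left, CPM per kb of Tcf3, Tcf4 and Tcf12 stacked for each library; right, Id genes per 100 of E protein genes on the same scale. The stacks reach 61.5 to 67.1 CPM per kb in 5 libraries and 110.0 in EGFR-DN 3, whose Id bar is at 4.37.

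The pathway around the family was read from 6 gene lists, with 66 of 74 genes tested. By edgeR 0 of these genes passed after adjustment. At an unadjusted p under 0.05 there were 10 with higher and 3 with lower values in EGFR-DN, where 4.3% and 2.4% of all genes lay. Of the 10, 9 were in the list of E protein targets. Without EGFR-DN replicate 3 the counts were 13 and 9 of 67 tested genes, beside 13.6% of all genes in either direction. Both directions together, there were 13 genes over all 6 libraries, 7 of 67 without EGFR-WT replicate 1 and 8 of 67 without EGFR-WT replicate 2. In those last 2 fits 539 of 20066 and 725 of 19668 genes overall reached that level. By DESeq2 4 pathway genes of 66 passed, all of them targets, where 0.699% of all genes passed.

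Among bHLH partners, 0 of 6 tested genes passed, and the list median was −0.16, or −0.22 without EGFR-DN replicate 3. Tal1, the most abundant partner and the gene that names the transgene driver, was at 69.2, 71.9 and 86.9 CPM in EGFR-DN, against 89.6, 86.0 and 83.0 CPM in EGFR-WT (log2 fold change −0.18, SE 0.15, or −0.29 without EGFR-DN replicate 3). Tcf15, a bHLH gene linked to quiescent mouse stem cells, was at 5.28, 6.41 and 3.09 CPM in EGFR-DN, against 14.6, 9.41 and 9.07 CPM in EGFR-WT. All EGFR-DN values of Tcf15 were below all EGFR-WT values, as for 8.72% of tested genes (−1.15, SE 0.33, edgeR adjusted p = 0.690). Twist1 (−1.25, SE 0.51), Bhlha15 (1.14, SE 0.51) and Ascl2 (0.94, SE 0.55) did not pass. Without EGFR-DN replicate 3 the value of Tcf15 was −0.92.

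Of 11 cofactor genes, 0 passed, and the list median was 0.18, or −0.02 without EGFR-DN replicate 3, beside medians of 0.01 and −0.01 over all genes. Lmo2, which bridges TAL1 and E protein dimers to GATA factors, was at 610, 607 and 512 CPM in EGFR-DN, against 752, 652 and 650 CPM in EGFR-WT (log2 fold change −0.25, SE 0.19). Runx1t1 (ETO), a corepressor that binds E proteins, was at 4.96, 5.47 and 10.5 CPM in EGFR-DN, against 21.6, 11.0 and 12.4 CPM in EGFR-WT. All its EGFR-DN values were below all its EGFR-WT values, as for 8.72% of tested genes. Runx1t1 (−1.11, SE 0.39) did not pass (edgeR adjusted p = 0.690, or 0.0998 without EGFR-DN replicate 3). The acetyltransferase genes Ep300 and Crebbp were at 0.81 and 0.42, and at 0.13 and 0.08 without that library. Kat2b was at 0.26, or 0.10 without it.

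BMP and TGF-beta signalling acts on Id genes through SMAD proteins. Of 21 tested genes of that list 0 passed, the median log2 fold change was 0.19, and it was −0.05 over 22 genes without EGFR-DN replicate 3. Tgfbr2, the type II TGF-beta receptor, was at 68.3, 66.2 and 92.6 CPM in EGFR-DN, against 53.6, 55.8 and 58.1 CPM in EGFR-WT. It had the smallest p of the list (log2 fold change 0.44, SE 0.17, edgeR adjusted p = 0.690), and was at 0.26 without EGFR-DN replicate 3. Acvr2b (0.47, SE 0.21), Tgfbr1 (0.48, SE 0.25) and Acvr1 (−0.47, SE 0.29) followed, with 0.24, 0.14 and −0.25 without that library. Eng, the most abundant member, was at 0.28 (SE 0.35), and turned to −0.25 without it.

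Other regulators of Id transcription and genes of protein stability gave 0 calls among 7 and 6 tested genes. Their list medians were 0.14 and 0.04, or −0.12 and 0.06 without EGFR-DN replicate 3. Gfi1, a repressor known to act on Id genes, was at 15.4, 13.8 and 6.03 CPM in EGFR-DN, against 5.59, 5.57 and 9.35 CPM in EGFR-WT, so EGFR-DN replicate 3 lay inside the EGFR-WT range (log2 fold change 0.79, SE 0.39, or 1.10 without it). Egr1, an ERK-induced factor, was the most abundant of the group and stood at −0.20 (SE 0.28), or −0.52 without that library. Egr3 (0.75, SE 0.70), Stat5b (0.15, SE 0.16) and Gfi1b (−0.13, SE 0.16) did not pass. Without EGFR-DN replicate 3, where Egr3 was at 1.72 CPM against 0.438 and 0.425 CPM in EGFR-DN replicates 1 and 2, Egr3 turned to −0.20, and Stat5b and Gfi1b were at 0.23 and −0.22. Huwe1, a ubiquitin ligase of ID proteins, was at 241, 225 and 774 CPM in EGFR-DN, against 210.0, 204 and 235 CPM in EGFR-WT. Its log2 fold change was 0.93 (SE 0.48), and 0.10 without EGFR-DN replicate 3. Usp1, which removes ubiquitin from IDs, was at −0.19 (SE 0.30), Wdr48, the cofactor of USP1, at 0.05 (SE 0.12), and Fzr1, a ubiquitin ligase activator, at 0.17 (SE 0.16). Without EGFR-DN replicate 3 Usp1 turned to 0.09, and Fzr1 was at 0.05.

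Known E protein targets of lymphoid progenitors were mostly at higher values in EGFR-DN, without passing by edgeR. Of 15 tested targets 14 had a log2 fold change above 0, with a median of 0.97 (0.89 without EGFR-DN replicate 3). By edgeR 0 passed after adjustment and 9 had an unadjusted p under 0.05, all with higher values in EGFR-DN, where 4.3% of all genes lay. By DESeq2 4 passed, Cdkn1a, Flt3, Rag2 and Blnk, where 0.513% of all genes passed with higher values. Higher values of lymphoid priming genes in these libraries were known when the list was made, so the list is no independent evidence of its direction.

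Cdkn1a, the cell cycle inhibitor p21, was at 25.1, 17.6 and 17.9 CPM in EGFR-DN, against 11.7, 8.71 and 9.50 CPM in EGFR-WT. Its log2 fold change was 1.02 (SE 0.21, edgeR adjusted p = 0.688, DESeq2 adjusted p = 0.0126). The recombinase gene Rag2 was at 9.07, 6.78 and 8.77 CPM in EGFR-DN, against 3.49, 2.77 and 4.65 CPM in EGFR-WT (DESeq2 adjusted p = 0.0156). For both genes all EGFR-DN values exceeded all EGFR-WT values, as for 9.21% of tested genes. Flt3, the receptor of early multipotent progenitors, was at a log2 fold change of 0.82 (SE 0.19, DESeq2 adjusted p = 0.0176) and the adaptor gene Blnk at 1.405 (SE 0.37, DESeq2 adjusted p = 0.0482). Dntt, the terminal transferase gene and the most abundant target, was at 509, 305 and 88.6 CPM in EGFR-DN, against 161, 124 and 176 CPM in EGFR-WT, so the groups overlapped (0.97, SE 0.55, or 1.401 without EGFR-DN replicate 3). Hes1, the Notch target, was the 1 tested gene below 0 (−0.72, SE 0.37, or −0.48 without that library), and Vpreb1 was not found by its symbol.

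**Figure D4:**
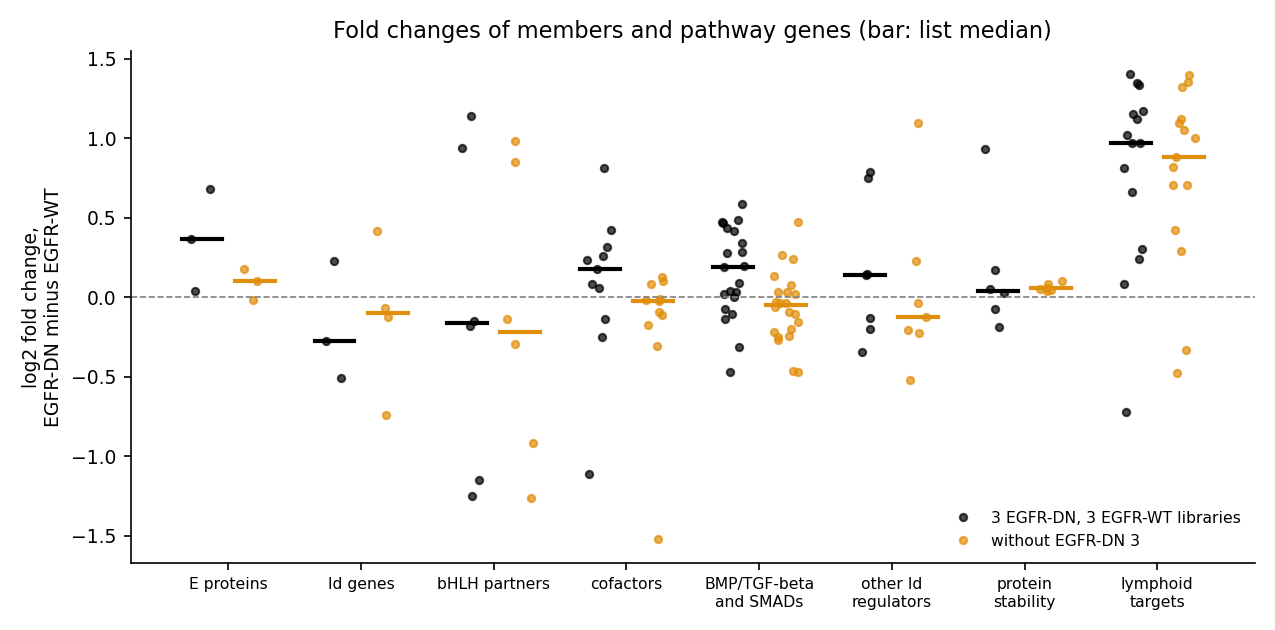
Log2 fold change, EGFR-DN minus EGFR-WT, of each tested member and pathway gene (points) by list, over all 6 libraries (black) and without EGFR-DN replicate 3 (orange), with bars at the list medians. The median of the lymphoid targets is 0.97 and 0.89, and that of every other list lies between −0.27 and 0.37.

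Markers of other cells were summed for each type, and some of these sums also lay higher in EGFR-DN. Neutrophil markers (10 genes, led by Mpo) summed to 896 to 1436 CPM in EGFR-DN and 403 to 584 CPM in EGFR-WT. The list median was 1.67, or 1.46 without EGFR-DN replicate 3, where edgeR called 2 of 10 tested higher, beside 0.286% of all genes called. By edgeR over all 6 libraries 6 of 9 tested were higher at an unadjusted p under 0.05, and DESeq2 called Mpo higher (adjusted p = 0.0250). For comparison with each list here, 4.3% of all genes were higher at that edgeR level and 0.513% were called higher by DESeq2. Monocyte and macrophage markers (7 genes) overlapped as a sum led by Lyz2, at 110.1 to 254 CPM in EGFR-DN and 227 to 245 CPM in EGFR-WT. Without Lyz2 they summed to 29.2 to 60.9 CPM in EGFR-DN and 22.2 to 26.4 CPM in EGFR-WT. Of the 6 tested, Lyz2 included, 5 had a log2 fold change above 0, and Lyz2 was at −0.41. The list median was 1.02, or 1.46 without EGFR-DN replicate 3. By edgeR over all 6 libraries 4 were higher at an unadjusted p under 0.05, and DESeq2 called Cx3cr1 and Ly6c2 higher (adjusted p = 0.0477 and 0.0479). B cell markers (9 genes, 5 of them also in the target list, led by Cd79b) were at 51.7 to 72.8 CPM in EGFR-DN and 36.5 to 48.5 CPM in EGFR-WT, with Pax5 under 1 CPM in all 6 libraries. Among them DESeq2 called Blnk higher (adjusted p = 0.0482), and the list median was 0.97, or 1.17 without EGFR-DN replicate 3. T and NK cell markers (9 genes) were at 168 to 261 CPM in EGFR-DN and 114.5 to 162 CPM in EGFR-WT. Nkg7 made up most of that sum, and without it the groups overlapped, at 18.2 to 35.1 CPM in EGFR-DN and 15.6 to 19.8 CPM in EGFR-WT. Here too only EGFR-DN replicate 3 lay inside the EGFR-WT range, and EGFR-DN replicates 1 and 2 lay above it. Cd3d, Cd3e, Cd3g and Cd8a were under 1 CPM throughout, and the list median was 0.54, or 0.65 without EGFR-DN replicate 3. Plasmacytoid dendritic cell markers (10 genes, 2 of them also targets), of the cells that depend on Tcf4, were at 197 to 229 CPM in EGFR-DN and 148 to 170.4 CPM in EGFR-WT. Without Runx2, their leading gene, the groups overlapped, at 73.5 to 152 CPM in EGFR-DN and 96.4 to 106 CPM in EGFR-WT. The overlap came from EGFR-DN replicate 3, the lowest, while EGFR-DN replicates 1 and 2 lay above every EGFR-WT library. Klk1 was at 0 in all libraries and Spib, Ptcra and Tlr9 were under 1 CPM. Of 8 tested, 7 had a log2 fold change above 0 (list median 0.94, or 0.71 without EGFR-DN replicate 3). By edgeR 3 were higher at an unadjusted p under 0.05, and DESeq2 called Irf8 higher (adjusted p = 0.0196). Bst2, the 1 below 0, was at 25.4 CPM in EGFR-DN replicate 3 and 71.9 to 77.2 CPM elsewhere.

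Stem cell and sort markers (12 genes) overlapped as a sum led by Kit, at 1904 to 4097 CPM in EGFR-DN and 2187 to 2436 CPM in EGFR-WT. Of the 12, 8 had a log2 fold change below 0 (list median −0.21), and without EGFR-DN replicate 3 this was 11 of 12 (median −0.66). The exception was Cd34, at 0.54 (edgeR adjusted p = 0.118), or 0.39 over all 6 libraries. It was at 569 and 534 CPM in EGFR-DN replicates 1 and 2, above every EGFR-WT library, as for 16.3% of tested genes. Procr, Ctnnal1 and Esam, genes of long-term stem cells, were lower in every EGFR-DN library than in every EGFR-WT library. The share of all tested genes with this pattern was 8.72%. By edgeR 0 of the 12 passed, and DESeq2 called Procr and Esam lower (adjusted p = 0.0495 and 0.0158), where 0.186% of all genes were called lower. Erythroid markers were at 83.3 to 151 CPM in EGFR-DN and 64.1 to 85.7 CPM in EGFR-WT, and megakaryocyte markers at 689 to 789 CPM in EGFR-DN and 524 to 955 CPM in EGFR-WT. Endothelial and stromal markers were at 23.7, 32.1 and 49.4 CPM in EGFR-DN replicates 1 to 3 and 39.7 to 50.4 CPM in EGFR-WT. These 3 sums overlapped, the last of them only through EGFR-DN replicate 3. The endothelial and stromal list median was −0.40, or −0.53 without that library. There edgeR called Col1a2 lower (adjusted p = 0.0455), where 0.286% of all genes were called. Erythroid and megakaryocyte list medians were 0.33 and 0.02, or 0.23 and 0.04 without it. The part of other cells in the values of the targets was not tested, and in bulk RNA a change in the number of cells of a type cannot be told apart from a change in RNA per cell.

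The genes whose pattern over the 6 libraries lay nearest to each tested member were found among 11122 or 11123 named genes with a mean of at least 4 CPM, by the root mean square difference of centred log2 CPM. For Tcf3 they were Ncapd3, Pip4k2a and Wbp11 (0.02 each), and for Tcf4 Ssna1, Mrpl48-ps and Cenpf (0.03 to 0.04). For Tcf12 they were Rprd2, Ankhd1 and Aak1 (0.04 to 0.05), each with its highest value in EGFR-DN replicate 3, at 218, 272 and 156 CPM. For Id2 they were Fabp5, Polr3f and Otos (0.05 to 0.08) and for Id1 Col18a1, Lbp and Arhgef25 (0.07 to 0.17). For Id3 the nearest were Nme-ps1, Itm2c and Rpl31-ps9, at 0.26 to 0.29. Between members the smallest differences were 0.25 for Tcf4 and Id2 and 0.27 for Tcf4 and Id1, and the largest was 1.30 for Tcf12 and Id3, so no other member was among the nearest genes of any member. Over 6 libraries, with EGFR-DN replicate 3 the most distant, such likeness is a description only.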

How the data were processed

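Counts of 3 EGFR-DN and 3 EGFR-WT libraries were used. cDNA was primed with oligo(dT) on 10 ng RNA with SMART-Seq V4, per the labels' protocols, and Nextera XT libraries, which do not mark strand, gave single 75-base reads. The deposited values are the authors' estimated counts by gene symbol, 79.4% of them whole, not scaled between libraries, and 0 columns belong to other samples. DRAGEN, DESeq2 1.40.2, R 4.3.1 and mm39 stand in the submitters' processing notes. Their roles, the annotation and any strand setting were not given in the sources used here. Reads of overlapping transcripts, such as a lncRNA that RefSeq (GRCm38.p6) places over Tcf4 and another over Id4, cannot be told apart from those of the gene.

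The planned tests assumed counts, and the estimated counts were rounded. Genes were filtered with filterByExpr (19313 left), scaled by TMM and tested with edgeR 4.0.16 (quasi-likelihood, two-sided, R 4.3.3), adjusted over all genes at 0.05. CPM is TMM-scaled. SE is the size of the log2 fold change over the square root of F, and intervals (95%) use the total degrees of freedom. DESeq2 1.42.0 and limma 3.58.1 were alternatives. Counts of the closest pair of libraries differed with a chi-square of 16.2 per degree of freedom, so none was a duplicate. Lengths are merged exons of GENCODE M21 (GRCm38). Promoters were found for 5 of 7 members. Scripts were tested on simulated counts.

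All 7 members are named. From each pathway list the 4 genes with the smallest p and the most abundant one are named, and for each tested member the 3 nearest genes with a mean of at least 4 CPM and a proper name. Members and lists were chosen with earlier results of these data known. Markers listed are those of stem cells, plasmacytoid dendritic, B, T and NK, erythroid, megakaryocyte, neutrophil, monocyte, and endothelial and stromal cells.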

Additional observations from a re-analysis of the deposited data

How the results depend on the processing

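Depth limited Id1, Id3 and Id4, with at most 58 counts in a library, and EGFR-DN replicate 3 limited all members. No member passed an adjusted p of 0.05 in any of the 17 alternatives, in which the adjusted p ranged from 0.236 for Tcf4 to 0.999 for Tcf4. Tcf3 and Id1 stayed above 0, and Id2 and Id3 below 0, in each alternative that tested them. Tcf4 turned to −0.056 on the log2 scale with library size alone, which moved the median of all genes by −0.11, and ranged from −0.062 to 0.18 when each library was left out in turn. Tcf12 ranged from −0.020 to 0.93 when each library was left out, the lowest without EGFR-DN replicate 3, and was at −0.017 by DESeq2 without that library, an alternative chosen after seeing the data. The other members ranged from 0.10 to 0.48 (Tcf3), 0.01 to 0.49 (Id1), −0.55 to −0.07 (Id2) and −1.14 to −0.11 (Id3) when each library was left out.

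The number of genes called, 1 as reported, was 135 by DESeq2, 188 by limma-voom with library quality weights, 0 by limma-voom (1187 at an unadjusted p under 0.05) and 884 by DESeq2 without EGFR-DN replicate 3. It ranged from 0 to 57 when each library was left out, with 57 without EGFR-DN replicate 3 and 0 without EGFR-WT replicate 1, 2 or 3 (539, 725 and 852 at an unadjusted p under 0.05 by edgeR). Pathway genes at an unadjusted p under 0.05, 13 as reported, were 23 with quality weights, 22 by DESeq2 without EGFR-DN replicate 3, and 7 to 22 when each library was left out, with 22 without EGFR-DN replicate 3, 7 without EGFR-WT replicate 1 and 8 without EGFR-WT replicate 2. Over all genes, 2788 of 19313 reached that level with quality weights and 2682 of 19919 by DESeq2 without EGFR-DN replicate 3. By edgeR it was 2714 of 19919 without EGFR-DN replicate 3, 539 of 20066 without EGFR-WT replicate 1 and 725 of 19668 without EGFR-WT replicate 2. The cause of these shifts was not tested. The log2 ratio of Id to E protein level differed by −0.61 between group means as reported and by −0.10 without EGFR-DN replicate 3. Over its 9 alternatives it ranged from −0.92 (without EGFR-DN replicate 1) to −0.10. Removal of the rRNA-like genes, among the 9, could not change a ratio within a library and left it at −0.61. The SD within groups, 0.64, includes EGFR-DN replicate 3, so it cannot show whether the ratio was stable without that library. The SD was 0.89 in EGFR-DN, 0.17 in EGFR-DN without replicate 3 (n = 2) and 0.16 in EGFR-WT. Replicate numbers are shared by the groups, but deviations of same-numbered libraries from their group means correlated at −0.0192, 0.0550 and 0.0640, and EGFR-DN replicate 1 correlated best with EGFR-WT replicate 2 (0.0820), so the numbers were not taken as pairs. With the replicate number as a block 1 gene was called and Tcf12 was at 0.49.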

Other observations

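The HMG-box genes whose older names resemble those of E proteins form a separate family that acts with beta-catenin. By edgeR 0 of 4 passed after adjustment. Tcf7, known from T cell progenitors, was at 25.1, 20.9 and 19.8 CPM in EGFR-DN replicates 1 to 3, against 10.3, 17.5 and 12.1 CPM in EGFR-WT replicates 1 to 3. All its EGFR-DN values exceeded all its EGFR-WT values, as for 9.21% of tested genes (log2 fold change 0.72, SE 0.23, edgeR adjusted p = 0.690). Tcf7l2 was at 42.4, 45.0 and 32.1 CPM in EGFR-DN replicates 1 to 3, against 43.3, 34.2 and 43.0 CPM in EGFR-WT replicates 1 to 3, and the groups overlapped. Tcf7l1 was at 0.817, 1.28 and 4.31 CPM in EGFR-DN replicates 1 to 3 and averaged 1.12 CPM in EGFR-WT, and its log2 fold change of 0.91 (SE 0.66) turned to −0.09 without EGFR-DN replicate 3. Tcf7l2 turned from −0.01 to 0.12 without that library. Lef1 averaged 0.677 CPM in EGFR-DN and 0.570 CPM in EGFR-WT.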
